A study of Mus musculus with 38 samples.

Results

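In the soleus, a posture muscle of the lower leg, 31 of the 10819 promoter clusters measured by CAGE had a higher mean level in refed mice than both before and during the fast in experiment #1. CAGE (cap analysis of gene expression) sequences the capped 5′ ends of transcripts, so the tags at a position count transcripts that started there. Tags at neighbouring positions were grouped by the authors into clusters, each read here as a promoter. A cluster was a member when its mean deposited level (TPM, the tags of a cluster scaled to a common library total) in the Post group of experiment #1 was at least 1, and was at least 1.5 times both the Pre mean and the Mid mean of that experiment. These means chose the members, so the values of those 3 groups in experiment #1 are given as a description and carry no test. Experiment #2, sequenced as a separate run of 10 libraries, took no part in the choice, and neither did the HiT, Fed and Dep groups of experiment #1.

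All 38 libraries came from male wild-type C57BL/6J mice, 1 library per mouse, and all soleus muscles were collected late in the dark phase. Pre mice were fed freely and sampled on day 1 (4 libraries in experiment #1 and 2 in experiment #2). Mid mice were sampled on day 2 after food had been withdrawn in the cold, when the species is prone to daily torpor (8 and 5 libraries), and Post mice on day 3 after food had been returned (4 and 3 libraries). HiT, Fed and Dep were further groups of 4 libraries each in experiment #1. HiT mice were kept at a high ambient temperature, and Dep mice were fasted in the cold but were touched gently so that torpor was interrupted. By the study's methods, HiT mice were fasted and Fed mice kept their food in the cold, but the condition field of the Fed samples reads starvation and the series' design text places food with HiT. Groups were therefore taken from the sample titles, and which of HiT and Fed had food is a point on which the sources differ. The labels give no age, and whether all mice of a Mid group were torpid at the moment of sampling is not recorded in them.

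When food is withdrawn in the cold, mice let metabolic rate and body temperature drop for some hours, a state called daily torpor, and muscle shifts from glucose to fat as fuel. Refeeding restores insulin signalling, glycogen and protein synthesis, and food itself is a time cue for the clock in peripheral tissues. Many genes have more than 1 promoter, and the promoter in use sets the first exon of the transcript and at times the start of the protein.

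Of the 31 member clusters, 25 had a GENCODE 5′ end at most 500 bp away on their strand and took that gene's name. Of these, 23 were of protein-coding genes, 1 of the long noncoding RNA A330074K22Rik and 1 of the small nucleolar RNA Snord35a, and the other 6 clusters had no gene. Their Post mean in experiment #1 ranged from 1.06 TPM (Mup20) to 4338 TPM (Fhl1) with a median of 8.92, against 16.1 over all clusters. The Mid mean was below the Pre mean in 19 members and above it in 12, so the level during the fast differed among members that were alike after refeeding. In 12 of the 31, every Post library of experiment #1 was above every Pre and Mid library of that experiment. The means of these libraries chose the members, so such separation is in part built in. The share over all clusters was not taken for experiment #1. Just inside the limits lay Stbd1 (Post over Pre 1.51) and a cluster on chromosome 14 (1.52), and just outside lay Gm4544 (Post over Pre 1.499, with a Post mean of 4.86 TPM) and Osbpl9 (Post over Mid 1.497, with a Post mean of 7.87 TPM).

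Tags in clusters numbered 18257657 to 39176649 per library in experiment #1 and 9359994 to 20914855 in experiment #2, so 1 TPM stood for fewer tags in experiment #2. Summed levels of 8 slow and 9 fast muscle fibre markers were at least 8938 TPM in all 38 libraries. A list of 24 genes made by the liver, of which 23 had a cluster, summed to 16.9 to 126 TPM in the Pre, Mid and Post libraries of experiment #1, but to 764 in Fed_2, 648 in Fed_3, 884 in Mid_11 and 2046 in Post_7. That list was drawn up after the values had been seen, and 5 members (Apoa2, Fabp1, Ahsg, Hpx and Mup20) are genes of this kind. They are described apart from the other 26, and results are given with and without the libraries named. In experiment #2, Pre_5, Pre_6 and Mid_9 to Mid_12 were sequenced on lane 3 and Mid_13 and Post_5 to Post_7 on lane 4, so Mid_13 alone links the lanes. In whole muscle, fewer cells of a type and less RNA per cell cannot be told apart.

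RefSeq promoter windows (250 bases before to 50 after the start, build GRCm38.p6) could be matched to 19 of the 31 members within 150 bp. Stretches before the RefSeq start are shown for the genes whose levels carry the results below, with their coordinates in mm10, to let the make-up of the promoters be seen. They are the clock gene Per3 (chr4:151044666-151044785, minus strand), the most abundant member Fhl1 (chrX:56779563-56779682, plus), Cacnb1 (chr11:98022635-98022747, minus), Nmrk2 (chr10:81202052-81202157, minus), Mllt11 (chr3:95228678-95228797, minus), Stbd1 (chr5:92602931-92603040, plus) and Myh3 (chr11:67078180-67078299, plus). Capitals mark matches on either strand to the letters searched, which were the TATA box TATAAA, the CCAAT box, the GC box GGGCGG, the heat shock element GAANNTTC, the E-box CACGTG, the cyclic AMP element TGACGTCA and the E2F letters TTTCCCGC.
Per3: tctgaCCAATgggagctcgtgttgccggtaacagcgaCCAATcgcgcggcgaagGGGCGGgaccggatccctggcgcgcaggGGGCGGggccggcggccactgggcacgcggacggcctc
Fhl1: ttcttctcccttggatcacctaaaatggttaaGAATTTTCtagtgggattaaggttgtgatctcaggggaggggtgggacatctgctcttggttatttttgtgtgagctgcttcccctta
Cacnb1: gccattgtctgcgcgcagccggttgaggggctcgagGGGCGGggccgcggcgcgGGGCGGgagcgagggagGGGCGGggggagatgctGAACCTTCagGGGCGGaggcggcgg
Nmrk2: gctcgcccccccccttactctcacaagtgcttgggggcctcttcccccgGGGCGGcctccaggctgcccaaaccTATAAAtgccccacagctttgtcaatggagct
Mllt11: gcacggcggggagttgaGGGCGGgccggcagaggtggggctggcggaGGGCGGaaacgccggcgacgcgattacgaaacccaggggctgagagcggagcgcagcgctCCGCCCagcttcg
Stbd1: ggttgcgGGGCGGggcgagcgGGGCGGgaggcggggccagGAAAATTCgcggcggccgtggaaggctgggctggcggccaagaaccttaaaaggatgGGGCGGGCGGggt
Myh3: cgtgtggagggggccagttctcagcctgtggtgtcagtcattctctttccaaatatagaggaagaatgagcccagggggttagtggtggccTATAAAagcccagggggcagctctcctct

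The stretches fall into visibly different kinds. Those of Cacnb1, Mllt11, Stbd1 and Per3 are rich in G and C with repeated GGGCGG boxes, those of Nmrk2 and Myh3 carry TATAAA, and that of Fhl1 has neither of these in the bases shown. Over the 19 matched members, the median ratio of observed to expected CpG was 0.338, against 0.805 over all 6100 windows matched to a cluster, and the median G+C content was 58% against 62%. TATAAA occurred in 6 of 19 windows (31.6%), against 7.97% of all windows, in Nmrk2, Myh3, Apoa2, Lrrc17, Fabp1 and, on the reverse strand, Fhl1. The match lay 46 bases before the RefSeq start in Nmrk2, 29 in Myh3 and 30 in Fabp1, and 156 or more in the others. CCAAT was found in 9 windows (47.4%, against 39.6% of all), GGGCGG in 8 (42.1%, against 69.8%) and GAANNTTC in 3 (15.8%, against 5.15%). The E-box CACGTG, the letters to which CLOCK and BMAL1 bind, was in 1 window (5.26%, against 10.95%), and neither TGACGTCA (3.62% of all) nor TTTCCCGC (1.95%) was in any. These shares are descriptions of the windows, and the 12 members without a match are not covered by them. The 19 include the liver genes Apoa2, Fabp1, Ahsg and Hpx. Their CpG ratios were 0.183, 0.198, 0.332 and 0.185, and their G+C contents 47%, 45%, 49.7% and 47.3%. Low CpG ratios also occurred in Klhl40 (0.162) and Fhl1 (0.214). Medians and shares were not taken without the liver genes. Clusters that passed only the Post over Pre limit had a median CpG ratio of 0.334 (23 windows), and those that passed only the Post over Mid limit 0.659 (284 windows).

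The first comparison asked whether these promoters were also higher after refeeding in mice of the second experiment. In experiment #2, 17 of the 31 members again met the same rule on means, against 1.78% of all clusters (193 of 10819). All 3 Post libraries lay above all 7 Pre and Mid libraries in 16 of the 31, against 5.58% of all clusters. Against Mid, 20 of the 31 members rose in Post and 0 fell (edgeR quasi-likelihood test, false discovery rate (FDR) below 0.05 by Benjamini-Hochberg over all clusters), where 7.73% of all clusters tested rose. The log2 fold changes of those 20 ran from 0.49 (Dbp) to 3.05 (Mchr1), which is 1.40-fold to 8.27-fold, and the median over all 31 was 1.17, against -0.01 over all clusters. When the 8 libraries of Mid and Post were dropped 1 at a time, 16 of the 20 kept their call throughout while Dbp and the cluster in Togaram2 were called in 7 fits, Gabbr1 in 4 and Cast in 2.

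Against Pre, no member passed the same limit. With 3 Post against 2 Pre libraries, 0 of the 31 members passed the FDR in edgeR's quasi-likelihood test (0.0277% of all clusters, 3 in number, did so as higher), and the lowest FDR of a member was 0.0947. At an unadjusted p below 0.05, 14 members (45.2%) were higher in Post than in Pre, against 5.06% of all clusters, with log2 fold changes from 0.40 (Dbp) to 1.505 (a cluster on chromosome 8). The fold change was positive in 28 of 31, with a median of 0.69 against 0.00 over all clusters. The edgeR likelihood ratio test called 6 members (0.416% of all clusters) and DESeq2 called 9 (0.721%). Post and Pre libraries of this experiment were on different lanes. With lane as a term of the model, 0 members were called against Pre, with 28 positive and a median of 0.87. In that model 7 were called against Mid, with a median of 1.25. The share of all clusters called with lane is not given here, so these counts have no background beside them. The 7 were Inpp5j, Cacnb1, Mchr1, Rbfox2, Mllt11, Stbd1 and Clcn3. The other 13, Per3, Dbp, Fhl1, Nmrk2, Nfe2l1, Cast, Gabbr1, A330074K22Rik and 5 clusters without a gene among them, stayed positive but were not called. The satellite cell marker Cdh15, the one of 4 such markers with a cluster, moved with Post there, at 20.01 to 23.0 TPM in Post against 13.3 to 16.99 in Pre and 14.2 to 16.1 in Mid. Its part in these counts was not tested.

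From Pre to Mid in experiment #2, 6 of the 31 fell and 0 rose, where 4.44% of all clusters fell, and the median was -0.48. They were Mchr1, Inpp5j, Clcn3, Stbd1, Cacnb1 and the cluster on chromosome 14. The count of 6 became 2 without Pre_5 or without Pre_6. Post vs Mid and Mid vs Pre share the Mid libraries, so each is given with its own values below.

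**Figure D1:**
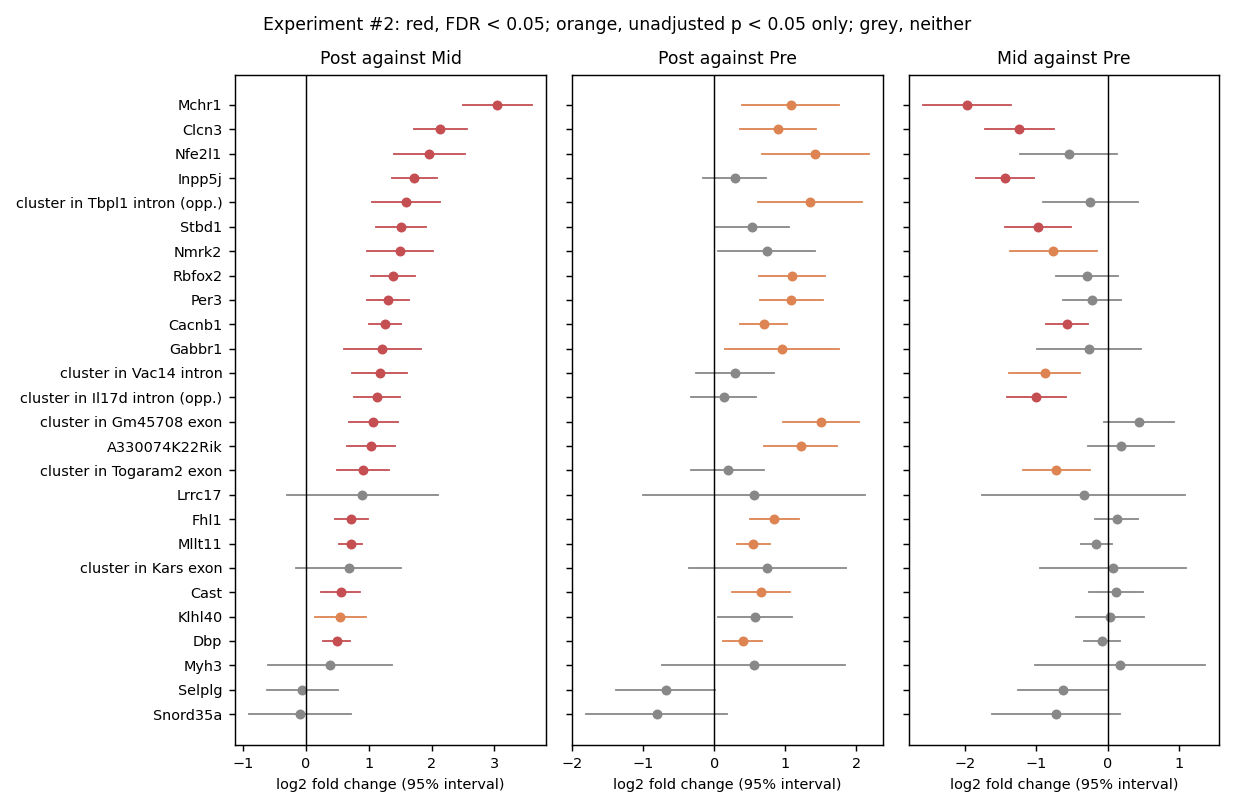
Log2 fold changes (x axis) in experiment #2 of the 26 members that are not genes of the liver (y axis), in the 3 comparisons Post vs Mid, Post vs Pre and Mid vs Pre, with 95% intervals as bars. Red points have an FDR below 0.05, orange points an unadjusted p below 0.05 alone and grey points neither, so that 20 red points stand in Post vs Mid, 0 in Post vs Pre and 6 in Mid vs Pre.

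Clusters that passed only 1 of the limits in experiment #1 gave the closest comparison. Of the 62 that passed Post over Pre only, 3 rose and 6 fell from Mid to Post in experiment #2, 24 (38.7%) had an unadjusted p below 0.05 as higher against Pre, 2 passed the FDR there, and 8 (12.9%) met the whole rule. Among the 561 that passed Post over Mid only, 345 (61.5%) rose from Mid to Post, 65 (11.6%) had an unadjusted p below 0.05 against Pre with 0 past the FDR, and 42 (7.49%) met the rule. Of the members, 17 of 31 (54.8%) met it, with a median log2 fold change against Pre of 0.69, against 0.55 in the 62 and 0.10 in the 561. These shares were set side by side without a test.

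The clock genes among the members were Per3 and Dbp. Per3 encodes a period protein of the clock's negative limb, and Dbp encodes a transcription factor that the clock drives and that drives other genes in turn. The Per3 cluster (chr4:151044443-151044730) had its peak in an exon of Per3, within an intron of the neighbouring Camta1 model on the same strand, and that of Dbp (chr7:45704900-45705741) in an exon of Dbp. In experiment #2, Per3 was at 3.02 and 4.03 TPM in Pre, at 2.62 to 3.35 with a median of 2.80 in the 5 Mid libraries, and at 7.95, 6.41 and 8.39 in Post. All 3 Post libraries stood apart above the rest. Per3 rose from Mid to Post by a log2 fold change of 1.31 (standard error, SE, 0.17, edgeR FDR 0.000603). The difference from Pre was 1.09 (SE 0.23), with an unadjusted edgeR p of 0.000607 and an FDR of 0.119. In experiment #1, on which the members were chosen, the Post libraries were at 10.9, 12.4, 11.6 and 17.9 TPM. The Pre libraries were at 5.71 to 8.37 there and the Mid libraries at 4.21 to 10.2. Post did not overlap them, which the choice of members favours.

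Dbp moved less. It was at 9.25 and 10.6 TPM in Pre, at 7.91 to 10.3 with a median of 8.997 in Mid, and at 13.2, 11.7 and 14.99 in Post of experiment #2. All 3 Post libraries lay above the others, while Pre and Mid overlapped, and the rise from Mid was 0.49 on the log2 scale (SE 0.11, edgeR FDR 0.0123), while the difference from Pre was 0.40 (unadjusted edgeR p 0.0161). Dbp did not meet the 1.5-fold rule in experiment #2. Of the rest of the clock, a list of 19 genes had 20 promoters of 18 genes measured, Per3 and Dbp included. From Mid to Post 6 promoters rose and 8 fell, and from Pre to Mid 6 rose and 1 fell. Over all 10816 clusters tested, 836 rose and 936 fell from Mid to Post, and 573 rose and 480 fell from Pre to Mid. Nr1d1, which encodes the repressor REV-ERBα, was the 1 promoter of the list called against Pre (log2 fold change 1.76, SE 0.23, edgeR FDR 0.0227), with means of 15.1 TPM in Pre, 19.7 in Mid and 52.2 in Post. Besides the 2 members and Nr1d1, those that rose from Mid were Nr1d2 (0.38), Bhlhe40 (1.67) and Bhlhe41 (1.38), all of which encode transcriptional repressors. Those that fell included both promoters of Per1 (-1.06 and -2.13), Nfil3 (-1.80), Arntl (-1.04), which encodes BMAL1, Npas2 (-1.02), Rora (-0.71) and Cry2 (-0.66). The period genes thus differed, with Per3 up and Per1 down from Mid to Post.

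**Figure D2:**
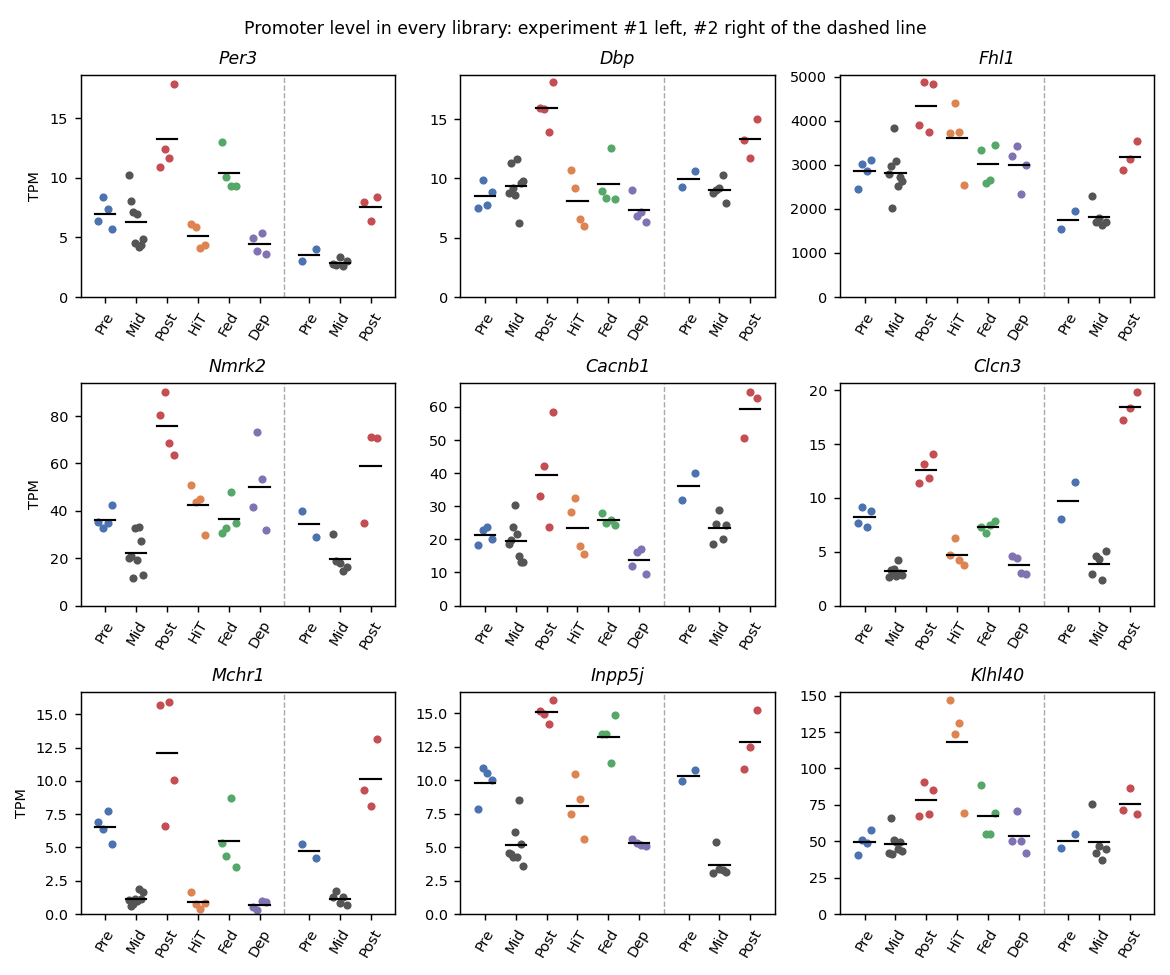
Deposited level in TPM (y axis, from 0) of 9 members in every library, by group (x axis), with experiment #1 left and experiment #2 right of the dashed line; points are libraries and bars are group means. In experiment #2 the Post points of Per3, Dbp, Fhl1, Cacnb1, Clcn3, Mchr1 and Inpp5j lie above all Pre and Mid points, whereas those of Nmrk2 and Klhl40 overlap them.

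Several named members have known roles in muscle fibres. Fhl1 encodes a LIM domain protein that is abundant in striated muscle and whose mutations cause myopathies. Its cluster (chrX:56779360-56779970) lay in an intron of Fhl1 models with its peak 15 bases before another annotated 5′ end, and it was the most abundant member. In experiment #2 it was at 1532 and 1953 TPM in Pre, 1625 to 2289.7 with a median of 1708 in Mid, and 2869, 3141 and 3534 in Post. All Post libraries were higher than all others of that experiment. Fhl1 rose from Mid by 0.72 (SE 0.13, edgeR FDR 0.00418) and differed from Pre by 0.85 (SE 0.17; unadjusted edgeR p 0.00053), a comparison that both the likelihood ratio test and DESeq2 called.

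Cacnb1 encodes the beta 1 subunit of the voltage sensor that couples excitation to contraction in skeletal muscle. Its member cluster (chr11:98022397-98022696, with its peak 2 bases after an annotated 5′ end) was at 31.9 and 40.2 TPM in Pre, at 18.6, 24.6, 28.7, 20.2 and 24.3 in Mid and at 50.6, 64.5 and 62.7 in Post of experiment #2. The 3 groups did not overlap. It fell from Pre to Mid by 0.57 on the log2 scale (SE 0.15, edgeR FDR 0.0388) and rose from Mid to Post by 1.26 (SE 0.13, FDR 0.000149), and the difference of Post from Pre was 0.69 (SE 0.17; unadjusted p 0.00174). Clcn3 encodes a chloride-proton exchanger of endosomes. Its member cluster (chr8:60954676-60954933) showed a deeper dip, at 8.005 and 11.4 TPM in Pre, 2.42 to 5.06 with a median of 4.35 in Mid, and 17.2, 18.3 and 19.8 in Post. Again no group overlapped another. Clcn3 fell by 1.24 (SE 0.25, FDR 0.0127) and rose by 2.14 (SE 0.21, FDR 0.000131), and exceeded Pre by 0.90 (SE 0.27; unadjusted p 0.00745).

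Rbfox2, a splicing regulator of muscle transcripts, and Cast, which encodes the calpain inhibitor calpastatin, rose from Mid without a called fall during the fast. The Rbfox2 cluster (chr15:77153556-77153941) was at 8.27 and 9.75 TPM in Pre, 5.798 to 9.70 in Mid and 17.1, 15.8 and 25.9 in Post, and its rise from Mid was 1.39 (SE 0.18, edgeR FDR 0.000603), with 1.095 against Pre (unadjusted p 0.000858). The Cast cluster (chr13:74807851-74808008) was at 5.69 and 7.96 in Pre, 5.24 to 8.25 in Mid and 11.3, 11.8 and 9.63 in Post. Post was highest in both genes, by a wider margin in Rbfox2. The Cast rise was 0.55 (SE 0.16, FDR 0.0406), and it kept its call in 2 of 8 fits with a library left out.

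Mllt11 encodes a small protein first found as a fusion partner in leukaemia, and Nmrk2 a nicotinamide riboside kinase of muscle that makes a precursor of NAD+. Mllt11 (chr3:95228114-95228926) was at 39.8 and 47.0 TPM in Pre, 33.7 to 41.4 in Mid and 55.9, 62.4 and 75.5 in Post, a rise from Mid of 0.71 (SE 0.09, edgeR FDR 0.000604) and a difference from Pre of 0.55 (unadjusted p 0.000842). Nmrk2 (chr10:81201976-81202161) was at 39.8 and 29.1 in Pre, 14.8 to 30.1 with a median of 18.1 in Mid, and 34.7, 71.4 and 70.7 in Post. Post_5 was within the Pre range, and the other two Post libraries were well above it. Nmrk2 rose from Mid by 1.502 (SE 0.27, FDR 0.00367), and its difference from Pre was 0.74 (SE 0.35; unadjusted p 0.0584). Its peak lies in an intron of Atcayos on the opposite strand.

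Klhl40, a kelch protein that stabilises thin filaments and is mutated in nemaline myopathy, and Myh3, the embryonic myosin heavy chain, were not called in experiment #2. Klhl40 (chr9:121777545-121777936) was at 45.6 and 54.7 TPM in Pre, 37.1 to 75.4 with a median of 44.8 in Mid, and 71.8, 86.8 and 68.7 in Post. Mid_9, at 75.4, overlapped the Post libraries, and the other 4 Mid libraries were at 37.1 to 46.6 TPM. The log2 fold change from Mid was 0.54 (SE 0.21, edgeR FDR 0.105), and the cluster lies over an exon of Gm47108 on the opposite strand. Myh3 (chr11:67078170-67078358) was at 5.57, 8.61, 8.30 and 10.5 TPM in Post of experiment #1 and at 0.938, 2.17 and 0.544 in Post of experiment #2, where Pre was at 0.534 and 1.07. The level in experiment #2 was low in all groups and the groups overlapped, with a log2 fold change from Mid of 0.38 (SE 0.50). Of a list on mechanical load and injury of muscle, Myh3 was the 1 member. Of the 19 measured promoters of that list 1 rose and 6 fell from Mid to Post, against 836 and 936 of all 10816 clusters tested.

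Among the 25 member genes, 7 (28%) had at least 1 more cluster, against 5.06% of all 9077 genes with a cluster (459). The rule chose clusters, so a gene with several clusters had more chances to hold a member. These shares of genes are therefore not like for like, and the share over clusters was not taken. Other clusters of these 7 genes numbered 12. They allowed a comparison within the gene, of the member promoter with the other promoter of highest mean over the 38 libraries, as a log2 ratio of TPM with a pseudocount of 0.1 in each library of experiment #2. From Mid to Post that ratio was higher by 1.84 in Clcn3, 1.72 in Nfe2l1, 1.45 in Cacnb1, 1.18 in Rbfox2, 0.67 in Fhl1 and 0.64 in Cast. In each of these 6, all 3 Post libraries had a higher ratio than all 5 Mid libraries (two-sided exact permutation test, p = 0.0357 each, the smallest that 3 against 5 libraries allow, and 0.0417 adjusted over the 7 genes compared). In Gabbr1 the difference was 0.86, with overlap (exact p = 0.0714). The promoter so chosen was also the highest other one in experiment #2 in 6 genes, but not in Fhl1. Against the highest there (peak at chrX:56731785), a choice made after the data were seen, the Fhl1 ratio was higher by 0.97 (exact permutation p = 0.0357). Against Pre the ratio was also higher in Post in all 7, but 3 against 2 libraries cannot go below an exact p of 0.2.

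The other promoters themselves moved little. Of the 12, 2 rose from Mid to Post and 0 fell, with a median log2 fold change of 0.11 from Mid and 0.01 from Pre. In Cacnb1 the courses parted after Mid. Its downstream promoter (peak at chr11:98018357) averaged 82.6 TPM in Pre, 52.0 in Mid and 48.4 in Post of experiment #2. Like the member, that promoter fell to Mid (log2 fold change -0.62, SE 0.13, edgeR FDR 0.0159), but it was not called between Mid and Post. In Pre, the member promoter of Cacnb1 was below that other one, at a mean of 36.0 against 82.6 TPM, and in Post it was above it, at 59.3 against 48.4. In Clcn3 the upstream promoter (peak at chr8:60983286) averaged 16.2, 12.1 and 16.4 TPM in Pre, Mid and Post, a rise from Mid of 0.35 (SE 0.10, FDR 0.0366), and the member promoter passed from 9.73 through 3.87 to 18.4. The other promoter that rose was that of Rbfox2 with its peak at chr15:77203582 (1.23, SE 0.11, FDR 7.17e-05), at 15.03, 7.79 and 19.3 TPM. So Rbfox2 had 2 promoters that rose from Mid and 1, with its peak at chr15:77306900, that was at 18.8, 15.6 and 18.6 TPM.

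The members were minor promoters in Nfe2l1, Cast and Gabbr1 and the main one in Fhl1. The largest Nfe2l1 promoter averaged 338, 359 and 435 TPM in Pre, Mid and Post, against 2.54, 1.65 and 6.86 for the member. For Cast the largest averaged 44.3, 44.9 and 44.7 TPM, against 6.83, 7.06 and 10.9 for the member. The member thus held a small share of the tags of either gene. In Fhl1 the other promoters averaged 9.32, 9.65 and 8.64 TPM (peak at chrX:56731785), 8.61, 7.84 and 10.2 (peak at chrX:56788062) and 1.29, 0.885 and 0.982 (peak at chrX:56786564, the one compared above).

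**Figure D3:**
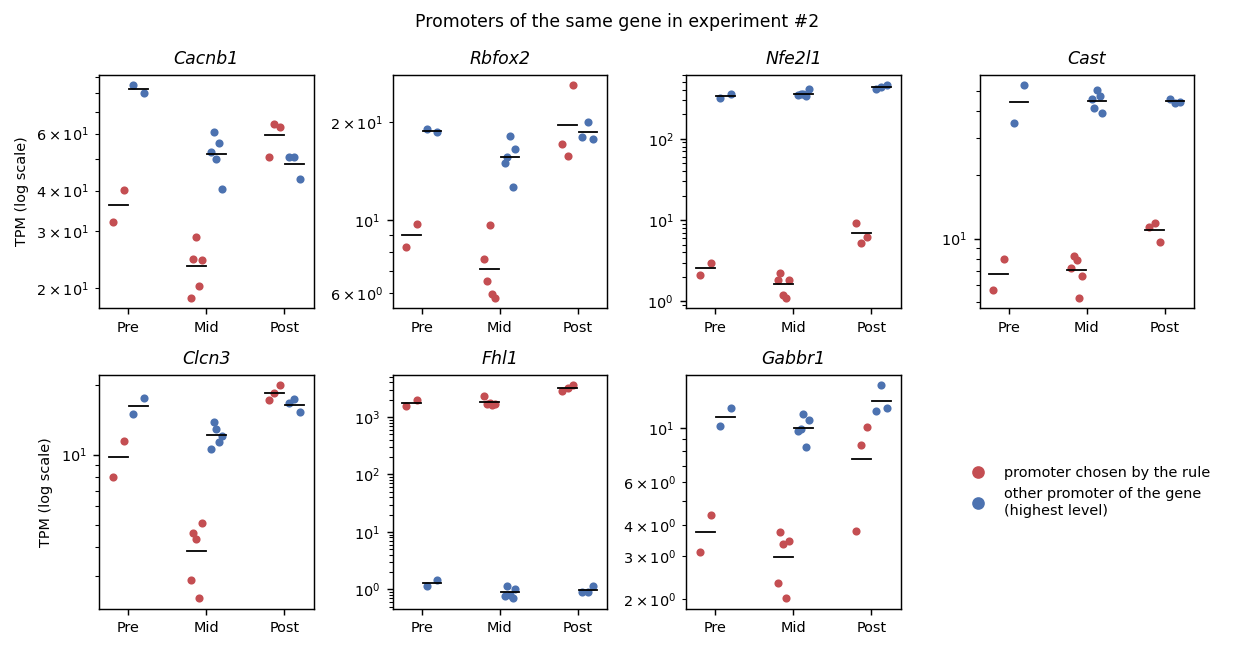
Level in TPM on a log axis (y axis) in the Pre, Mid and Post libraries of experiment #2 (x axis) of the member promoter (red) and of the other promoter of highest mean over the 38 libraries (blue), for the 7 genes with more than 1 cluster; points are libraries and bars are group means. The red mean is highest in Post in all 7 genes, and in Cacnb1, Rbfox2 and Clcn3 it lies below the blue mean in Pre and Mid and above it in Post.

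A further group of members acts in metabolism and signalling. Stbd1 encodes a protein that tethers glycogen to membranes, and Inpp5j a phosphatase that removes the 5-phosphate of phosphoinositides. Stbd1 (chr5:92603003-92603292) was at 6.85 and 9.93 TPM in Pre, 3.18 to 6.06 with a median of 3.47 in Mid, and 11.5, 10.4 and 15.1 in Post of experiment #2. Inpp5j (chr11:3504728-3504853) was at 9.96 and 10.7 in Pre, 3.09 to 5.36 with a median of 3.32 in Mid, and 10.8, 12.5 and 15.2 in Post. For both genes Mid was lowest and Post highest with no overlap, though in Inpp5j the lowest Post library was near the Pre level. Stbd1 fell to Mid by 0.98 (SE 0.24, edgeR FDR 0.0278) and rose from it by 1.51 (SE 0.21, FDR 0.000792), and Inpp5j fell by 1.44 (SE 0.21, FDR 0.00272) and rose by 1.73 (SE 0.18, FDR 0.000178). The excess over Pre was 0.54 in Stbd1 (unadjusted edgeR p 0.0674) and 0.29 in Inpp5j (p 0.24), and neither difference passed the test.

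Nfe2l1 encodes NRF1, a membrane-bound transcription factor that raises proteasome genes. Its member promoter (chr11:96823851-96824253), in an intron of other Nfe2l1 models and 1 base before an annotated 5′ end, was at 2.13 and 2.95 TPM in Pre, 1.11 to 2.25 with a median of 1.83 in Mid, and 9.20, 5.22 and 6.14 in Post. Post was far above the rest, and the rise from Mid was 1.97 (SE 0.29, edgeR FDR 0.00122), with 1.42 against Pre (SE 0.38; unadjusted p 0.00381). Mchr1 encodes the receptor of melanin-concentrating hormone, best known from the brain's control of feeding. Its cluster (chr15:81235346-81235816) was at 5.25 and 4.20 TPM in Pre, at 1.25, 1.73, 0.856, 1.31 and 0.690 in Mid and at 9.29, 8.08 and 13.1 in Post of experiment #2. No group overlapped another, and the fold change from Mid was the highest among the called members. Mchr1 fell to Mid by 1.97 (SE 0.32, FDR 0.00442), rose from Mid by 3.05 (SE 0.28, FDR 8.07e-05) and exceeded Pre by 1.07 (SE 0.35; unadjusted p 0.0107). In experiment #1 it was at 5.26 to 7.72 TPM in Pre, 0.5999 to 1.92 in Mid and 15.7, 6.61, 15.9 and 10.1 in Post, where Post_2 lay within the Pre range.

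Gabbr1 encodes a subunit of the metabotropic GABA receptor. Its cluster (chr17:37050604-37050756) was at 3.11 and 4.38 TPM in Pre, 2.01 to 3.75 in Mid and 3.80, 8.48 and 10.1 in Post, so Post_5 lay within the Pre range, and the rise from Mid was 1.21 (SE 0.31, edgeR FDR 0.0231). Lrrc17, which encodes a secreted leucine-rich repeat protein, and Selplg, which encodes the P-selectin ligand of white blood cells, were not called. Lrrc17 (chr5:21543370-21543699) was at 2.76 and 1.43 TPM in Pre, 0.692 to 4.78 with a median of 0.868 in Mid, and 3.75, 1.77 and 3.88 in Post. Mid_11 held the highest of these values. It was also high in liver genes and in cell division, neutrophil and red blood cell markers, whose part was not tested. Those markers summed to 59.4, 7.92 and 5521 TPM in Mid_11. The other Mid libraries of experiment #2 were at 21.3 to 27.6, 0.092 to 1.11 and 1129 to 2800 TPM. Selplg (chr5:113830395-113830514) ran against its course in experiment #1, at 2.76 and 3.13 in Pre, 1.16 to 2.77 in Mid and 1.88, 1.97 and 1.71 in Post, with a log2 fold change of -0.69 against Pre that did not pass the test.

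The clusters without a protein-coding gene behaved in several ways. A330074K22Rik (chr8:120227977-120228174), a long noncoding RNA of unknown function, was at 3.11 and 4.20 TPM in Pre, 3.46 to 4.53 in Mid and 7.42, 10.5 and 8.002 in Post of experiment #2. Mid lay near the Pre level, and the Post mean was 2.18 times the Mid mean and 2.37 times the Pre mean, a rise from Mid of 1.03 (SE 0.19, edgeR FDR 0.00495) and an excess over Pre of 1.22 (SE 0.26; unadjusted p 0.000758). In experiment #1 its 4 Post libraries were at 7.13, 11.1, 7.46 and 9.95 TPM and the 12 others at 2.19 to 4.90. The cluster at chr8:93627717-93627923, in an exon of Gm45708 on the same strand, had the lowest p of the members against Pre, at 3.38 and 4.20 in Pre, 3.57 to 5.89 in Mid and 9.61, 11.5 and 11.7 in Post. It rose from Mid by 1.07 (SE 0.20, FDR 0.00459) and exceeded Pre by 1.505 (SE 0.27; unadjusted p 0.000202, FDR 0.0947).

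The cluster at chr10:22719824-22720027 lies in an intron of Tbpl1 on the opposite strand. It was at 1.16 and 2.06 TPM in Pre, 1.01 to 1.73 in Mid and 3.89, 4.24 and 4.35 in Post, and rose from Mid by 1.59 (SE 0.28, edgeR FDR 0.00325). Of the 6 clusters without a gene, 3 more rose from Mid but stood near Pre. They were the cluster at chr14:57525306-57525674, in an intron of Il17d on the opposite strand (1.13, with 0.13 against Pre), that at chr8:110703524-110703785 in an intron of Vac14 (1.17, with 0.29 against Pre) and that at chr17:71691288-71691628 in an exon of Togaram2 (0.91, with 0.19 against Pre). The cluster at chr8:112005639-112005928 in an exon of Kars was at 0.302 to 1.32 TPM in all 10 libraries of experiment #2 and was not called. Snord35a (chr7:45126157-45126260) was not called either, and its cluster falls in an exon of the ribosomal protein gene Rpl13a on the same strand, so its tags cannot be assigned to the small nucleolar RNA with certainty.

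The 5 genes of the liver were members through a few libraries. Apoa2 encodes an apolipoprotein, Fabp1 the liver fatty acid binding protein, Ahsg the plasma protein fetuin-A, Hpx the haem carrier hemopexin and Mup20 a major urinary protein. In experiment #1, Fabp1 was listed at 0, 0, 0.188 and 0.0376 TPM in Pre and at 0, 5.95, 0.115 and 4.26 in Post. In Mid it was at 0 in 4 of 8 libraries and at 7.91 in Mid_7. Thus Post_2 and Post_4 carried the Post mean, and the Post groups overlapped Pre and Mid. Each of Apoa2, Ahsg and Hpx was likewise at 0 in 1 of 4 Post libraries, and at 0 in 2, 1 and 2 of 4 Pre libraries. Ahsg was at 4.21 TPM in Post_2 and 2.32 in Post_4, and at 0.0383 or less in the other two.

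In experiment #2, Post_7 held the highest value of 4 of the 5, and Mid_11 that of Ahsg, and these were the libraries with the largest liver sums. The sums in the others were 284 TPM in Pre_5, 391 in Pre_6, 271 in Mid_10, 149, 135 and 91.8 in the other Mid libraries, and 103 in Post_5 and 90.2 in Post_6. Fabp1 was at 98.8 TPM in Post_7 but at 0 in Post_5 and 1.38 in Post_6, and at 24.2 in Mid_11 against 0.506 to 4.13 in the other Mid libraries. Ahsg was at 88.7 TPM in Mid_11 and 62.7 in Post_7, against 0 in Post_5 and 1.48 in Post_6. So 2 of the 5, Fabp1 and Hpx, met the rule again in experiment #2, 0 of the 5 were called in any comparison there, and in none were all Post libraries above all others. The Mup20 cluster belongs to a family of near-identical copies, so its tags may come from several Mup genes. The source of these transcripts in soleus was not tested. The list of liver genes includes these 5, and in experiment #1 it did not always move with them. It summed to 93.1 TPM in Pre_1, where all 5 were at 0, but to 92.6 in Post_2 and 108 in Post_4. In Mid_1 it summed to 123 TPM with Fabp1, Ahsg and Hpx at 0, and in Mid_7 to 126. Without Mid_7 in experiment #1, the number of members by the rule was 50 in place of 31. Without both Mid_11 and Post_7, 18 members were called higher in Post than in Mid in experiment #2, and 16 met the rule. The shares of all clusters without these libraries are not given here.

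**Figure D4:**
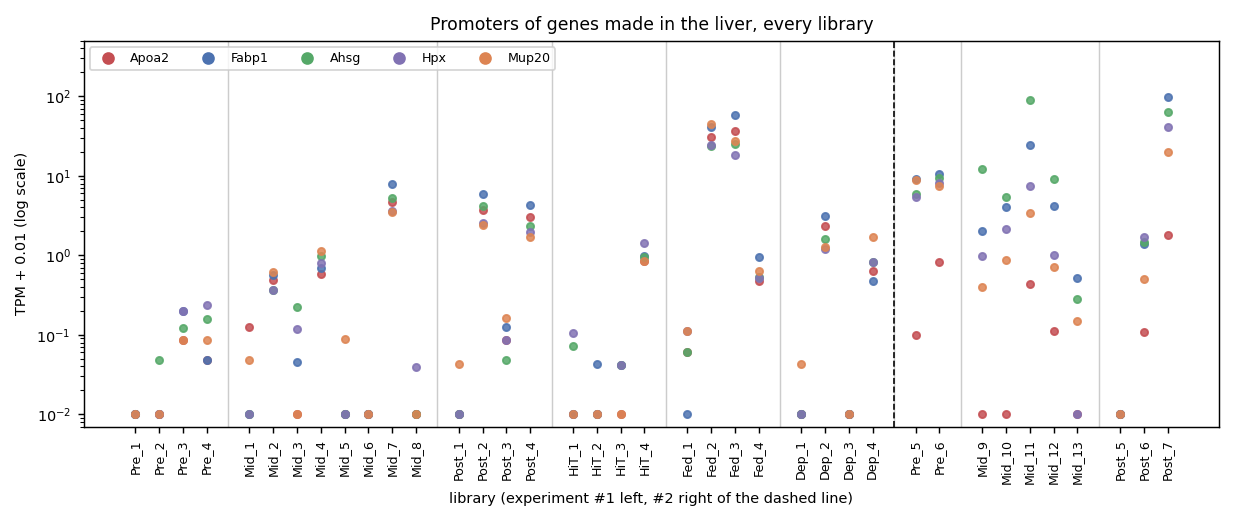
Level (TPM + 0.01, log y axis) of the 5 member genes made by the liver in each of the 38 libraries (x axis, by group), 1 series of points per gene. High values stand in Fed_2, Fed_3, Mid_7, Mid_11 and Post_7, and values at the floor, which is 0 TPM, in many others. The points of the genes lie close together in Fed_2, Fed_3 and Mid_7 of experiment #1. They spread widely in experiment #2, from 0.428 (Apoa2) to 88.7 TPM (Ahsg) in Mid_11 and from 1.79 (Apoa2) to 98.8 TPM (Fabp1) in Post_7.

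The last comparison concerns the 3 groups of experiment #1 that took no part in the rule. As means, none of the members was as high in Dep as in Post of experiment #1. In HiT 4 were (Lrrc17, Selplg, Klhl40 and the cluster in Kars), and in Fed 5 were, all of them genes of the liver. The members were chosen for a high Post mean, so lower means in other groups are in part built in. These counts are a description, with no share over all clusters beside them. Mchr1 was at 5.35, 4.36, 8.68 and 3.55 TPM in Fed, at 1.65, 0.733, 0.413 and 0.816 in HiT and at 0.498, 0.330, 0.950 and 0.886 in Dep. Neither HiT nor Dep overlapped Fed. Inpp5j was at 11.3 to 14.9 in Fed, 5.64 to 10.5 in HiT and 5.09 to 5.65 in Dep, in that order without overlap of Fed with the others. Clcn3 was at 6.70 to 7.85 in Fed, 3.78 to 6.27 in HiT and 2.89 to 4.62 in Dep, and Per3 at 9.28 to 13.01, 4.07 to 6.12 and 3.58 to 5.33. Fed was thus the highest of the 3 groups in all 4 of these genes.

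Against Fed, 13 members were lower in Dep by edgeR (20% of all clusters tested were) and 2 were higher (18.6% of all). Those lower, besides Mup20 and Fabp1, included Mchr1 (log2 fold change -2.80, SE 0.44, FDR 2.65e-05), Stbd1 (-1.12, SE 0.20, FDR 0.000133), Inpp5j (-1.12, SE 0.23, FDR 0.000434) and Per3 (-1.04, SE 0.22, FDR 0.000782). Cast, Clcn3, Cacnb1, Rbfox2, Nfe2l1, Lrrc17 and the cluster on chromosome 14 were also lower. Higher in Dep than in Fed were Nmrk2 (0.65, SE 0.26, FDR 0.0483), at 31.98 to 73.3 TPM in Dep and 30.8 to 48.1 in Fed, and the cluster on chromosome 10 (0.89, SE 0.28, FDR 0.0144). Since Fed_2 and Fed_3 stood apart in liver genes, the count was taken without them: 8 were lower and 0 higher, and Mchr1, Stbd1, Inpp5j, Per3, Clcn3, Cast, Cacnb1 and Rbfox2 were the 8. The share of all clusters called in that fit is not given here, so these counts have no background beside them. The higher count of 2 was also 1 or 0 without Fed_1, Fed_2, Fed_4 or Dep_2. Beside these counts, 4 neutrophil markers summed to 117 TPM in Dep_1 and to at most 0.824 in the other Dep and Fed libraries, and without Dep_1 there were 11 lower and 2 higher. The 5 red blood cell markers summed to 12643 TPM in Fed_2 and 2718 to 5778 in the other Fed libraries, and Cdh15 was at 10.4 to 12.4 in Dep and 14.3 to 18.1 in Fed. The part of these markers was not tested.

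Between HiT and Fed, 10 members were higher in HiT (23.3% of all clusters were) and 11 lower (20%), and these comparisons share the Fed libraries with the last. The 10 higher were the cluster in Kars (3.76, SE 0.34, edgeR FDR 1.03e-08), Selplg (2.06), Lrrc17 (1.69), Gabbr1 (1.23), the Gm45708 cluster (1.00), Klhl40 (0.99), Myh3 (0.84), the chromosome 10 cluster (0.69), Rbfox2 (0.68) and Fhl1 (0.47). The Kars cluster was at 9.70, 12.2, 7.03 and 6.33 TPM in HiT and at 0.452 to 1.60 in all other libraries of experiment #1, Post included. Klhl40 was at 147, 124, 131 and 69.3 in HiT and 55.03 to 88.6 in Fed, so HiT_4 lay within the Fed range. Lower in HiT were the 5 genes of the liver, Mchr1 (-2.39, SE 0.42, FDR 7.66e-05), Nfe2l1 (-1.49, SE 0.29, FDR 0.000201), the Vac14 cluster (-1.13), the chromosome 14 cluster (-0.90), Per3 (-0.82) and Cast (-0.40). Without Fed_2 and Fed_3 the counts were 6 higher and 5 lower, with no share of all clusters given for that fit. Beside these values, 7 macrophage markers summed to 145.3 to 437 TPM in HiT and 38.4 to 102 in the other libraries of experiment #1, and 5 cell division markers to 32.3 to 81.2 in HiT and 12.4 to 29.9 elsewhere; their part in the result was not tested.

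Dep and HiT differed in 10 members, with 9 lower in Dep (15.3% of all clusters were) and 1 higher (11.3%). The lower ones were the cluster in Kars (-3.37, SE 0.34, edgeR FDR 1.26e-07), Lrrc17 (-2.95), Selplg (-2.37), Klhl40 (-1.13), Rbfox2 (-1.12), Gabbr1 (-0.89), Cacnb1 (-0.78), Stbd1 (-0.76) and Inpp5j (-0.60). The Vac14 cluster was higher in Dep (0.69, SE 0.21, FDR 0.0169), a count that was 0 without Dep_2 and 2 without HiT_3. Mchr1, low in both groups, was not called between them.

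**Figure D5:**
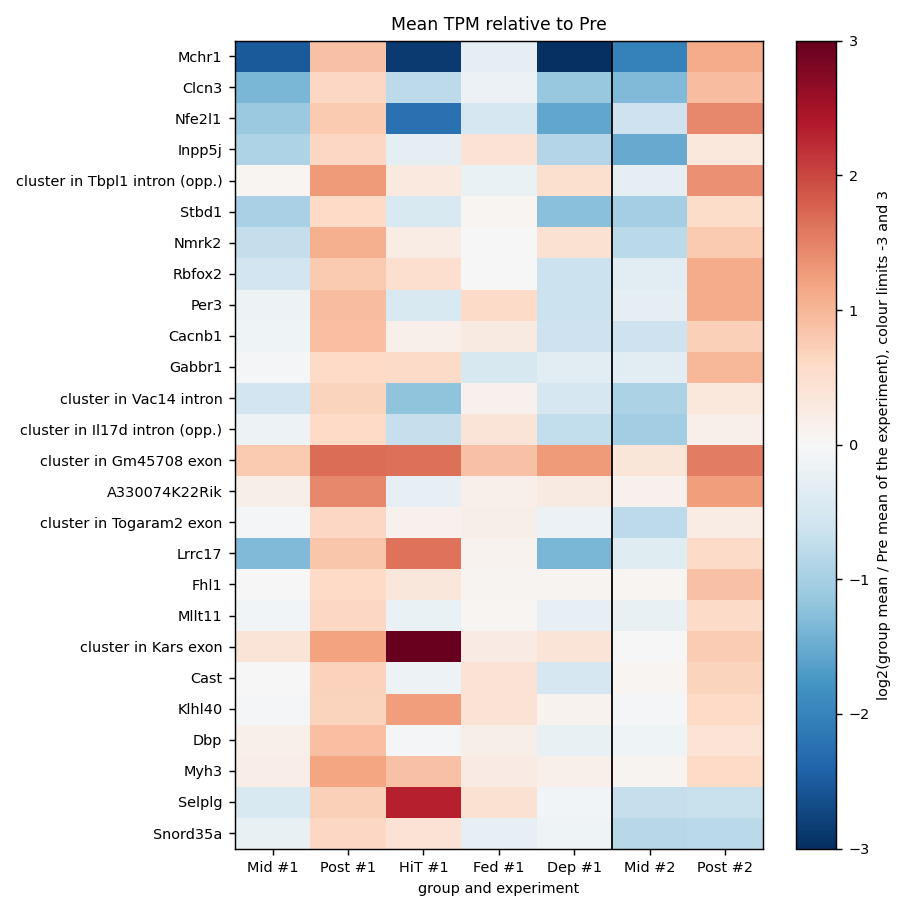
Colour map of the log2 ratio of each group mean to the Pre mean of the same experiment (columns) for the 26 members that are not genes of the liver (rows), with the colour scale limited to -3 to 3. The Post columns are above 0 by the rule in experiment #1, while the HiT column is split, with the Kars cluster beyond the upper limit, and Mchr1 in the Dep column is beyond the lower limit.

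Of the 11 other gene lists examined, none held a member of the 31. Fatty acid and triglyceride synthesis had 17 of 31 promoters that rose and 4 that fell from Mid to Post, with a median of 0.84, and cholesterol synthesis and uptake had 8 of 13 that rose and 0 that fell, with a median of 0.75. In both lists 0 promoters passed the FDR against Pre in edgeR, and the medians there were 0.24 and 0.20, below the 0.69 of the members. Ribosome biogenesis (0 rose and 5 fell of 24), immediate early genes (0 and 11 of 22), collagens and matrix (0 and 3 of 23) and mitochondrial import, chaperones and ribosomes (0 and 5 of 20) had no promoter that rose from Mid. The counts were 1 and 2 of 19 for endoplasmic reticulum chaperones, 2 and 1 of 24 for cytosolic heat shock proteins and 2 and 2 of 28 for glucose uptake and glycolysis. They were 2 and 5 of 23 for insulin and IGF signalling and 0 and 2 of 12 for polyamine synthesis and amino acid uptake. Over all 10816 clusters tested, 836 (7.73%) rose and 936 fell from Mid to Post. The lists were not tested against these counts.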

How the data were processed

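CAGE libraries from the soleus of 38 mice were used, 28 from experiment #1 and 10 from experiment #2. Reads had been trimmed by the authors and aligned with BWA and HISAT2 to mm10 (tool versions not given in the sources used here), and start sites were grouped by them with PromoterPipeline. The deposited table gives, for each library and cluster, a raw count of tags (called rescued by its header, a name for shared tags that are redistributed) and a level in TPM, scaled by the authors to the library's total. Clusters held 93.1% to 95.6% of the totals. Of the 10819 clusters in the table, 9615 lay within 500 bp of a same-strand 5′ end of GENCODE M21 and took its gene. Groups came from sample titles, and no pair of libraries of a group agreed within sampling noise (72 pairs, lowest chi-square per cluster 12.4).

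Member choice, per-library levels and promoter ratios used deposited TPM. Tests used the counts, in edgeR 4.0.16 (R 4.3.3): TMM scaling, a quasi-likelihood fit over all libraries of a run with group as the one term, and Benjamini-Hochberg adjustment over all clusters tested (10816 in experiment #2 and 10776 in experiment #1), with 0.05 as the limit. Clusters with no tag in a run were not tested. Standard errors are the fold change over the root of F, an approximation. Alternatives were DESeq2 1.42.0, the likelihood ratio test, other scalings, a filter, lane, a replicate block and leaving out libraries. The scripts were tested on simulated data. Exact permutation tests used scipy 1.17.1.

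Named with values were the 12 members with a gene of largest smaller ratio in experiment #1, the 8 of highest Post mean, members of the gene lists and the clusters next to the limits; others are named as counted sets, after their values were seen. Members, gene lists and tests were chosen with earlier results of these data known. Replicate numbers did not pair mice, as same-numbered libraries did not deviate together throughout (correlations of -0.28 to 0.48). Libraries are separate mice, and p-values measure the spread between them.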

Additional observations from a re-analysis of the deposited data

Results flagged for a closer look

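Over the groups of 4 to 10 libraries, 217 sets of values of a member in a group were examined for a library whose gap to its nearest neighbour was large against the whole range (Dixon's 95% limit), and 32 stood out, where chance gives about 1 in 20. They fell on 15 libraries, with 6 in HiT_4, 6 in Mid_11, 5 in Mid_7, 3 in Mid_9 and 2 in Mid_10.

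The genes of the liver gave 5 of these in each of 3 libraries and 1 more. In Mid_7, Fabp1 was at 7.91 TPM, Ahsg at 5.27, Apoa2 at 4.68, Hpx at 3.61 and Mup20 at 3.55. Mid_11 held Ahsg at 88.7 TPM, Fabp1 at 24.2, Hpx at 7.49, Mup20 at 3.35 and Apoa2 at 0.428. HiT_4 held Hpx at 1.44 TPM, Fabp1 at 0.979, Ahsg at 0.946 and both Apoa2 and Mup20 at 0.848. Dep_2 held Fabp1 at 3.09 TPM. Each of these was the highest value of its gene in its group.

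Among the other members, Mid_9 was highest of its group in Nmrk2 (30.1 TPM), Klhl40 (75.4 TPM) and Fhl1 (2290 TPM), the last being the most abundant member. Mid_10 was highest in Inpp5j (5.36 TPM) and in the cluster in Vac14 (7.84 TPM), and HiT_4 was lowest in the latter (2.35 TPM). Lrrc17 was highest in Mid_11 (4.78 TPM) and, in experiment #1, in Pre_2 (3.77 TPM). Single libraries also stood above their group in Myh3 (Pre_4, 4.96 TPM), Dbp (Fed_3, 12.6 TPM), Selplg (Dep_1, 2.39 TPM), Klhl40 (Mid_2, 66.0 TPM) and Clcn3 (Mid_6, 4.21 TPM). The same held for Snord35a (Mid_13, 8.74 TPM), the cluster on chromosome 10 (Fed_4, 4.78 TPM) and the cluster on chromosome 14 (Mid_4, 9.28 TPM).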

How the results depend on the processing

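Experiment #2 was sequenced less deeply and had 2 Pre libraries, and lane and group are nearly confounded there. The number of members was 5 with a ratio of 2, 52 with group medians in place of means, and 24 to 50 with 1 library of experiment #1 left out (50 without Mid_7). Members that met the rule in experiment #2 numbered 9 with a ratio of 2 and 14 to 20 with 1 library left out. Post vs Pre in experiment #2 gave 0 members in the quasi-likelihood fits, with any library left out, with lane and with the replicate block, but 6 in the likelihood ratio test and 9 in DESeq2. Post vs Mid gave 17 to 20 higher with 1 library left out and 7 with lane as a term, and in the 8 fits with 1 left out Cast was called in 2, Gabbr1 in 4, and Dbp and the cluster in Togaram2 in 7. Members lower in Mid than in Pre numbered 2 to 7 (2 without Pre_5 or Pre_6). For Dep vs Fed, members called higher were 0 without TMM, 1 with upper-quartile scaling and 0 to 3 with 1 library left out, and members called lower 10 to 15. For HiT vs Fed, higher members were 5 without TMM and 7 to 10 with 1 library left out, and lower members 7 in the likelihood ratio test, 7 with the replicate block and 9 to 11 with 1 library left out. For Dep vs HiT they were 0 to 2 higher and 8 to 9 lower with 1 library left out, and 7 were lower without TMM. The replicate block, used although same-numbered mice are unrelated, gave 2 higher and 9 lower for Dep vs Fed, 9 higher for HiT vs Fed, and 1 higher and 9 lower for Dep vs HiT. Chosen after the data were seen, fits without Fed_2 and Fed_3 gave 0 higher and 8 lower for Dep vs Fed and 6 higher and 5 lower for HiT vs Fed, and those without Mid_11 and Post_7 gave 18 for Post vs Mid and 7 for Mid vs Pre. Apart from the likelihood ratio test and DESeq2 in Post vs Pre, shares of all clusters under these alternatives are not given here.

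The values of single promoters in Post vs Pre and Post vs Mid of experiment #2 were also followed under the alternatives that keep all libraries of the groups compared. Of these values, 425 kept direction and side of the limit, 15 passed it anew, 13 no longer passed it (all with lane as a term) and 10 changed sign. With lane, the log2 fold change of Myh3 was -0.11 both against Pre and against Mid, that of Mup20 against Pre 2.77 and that of Ahsg against Mid 6.02. With the replicate block, Post vs Pre was -3.85 for Ahsg, -2.998 for Apoa2, -4.36 for Fabp1 and -3.51 for Hpx. Without TMM, Post vs Mid was 0.012 for Selplg and 0.0036 for Snord35a. None of these was called. The cause of these differences was not tested.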
